A study of Mus musculus with 4 samples.

Results

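The core cardiac transcription factors are a set of 10 genes: Nkx2-5, Gata4, Gata5, Gata6, Tbx5, Tbx20, Mef2a, Mef2c, Hand1 and Hand2. They were chosen by name, and every array probe whose RefSeq accession maps to one of these symbols was taken. All 10 genes were found, with 13 probes among 39417 non-control probes, and all 13 probes were well above background on all 4 arrays. All 10 genes therefore passed the filter on dim probes and entered the test, among 20726 features.

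The cells were cardiomyocytes grown from CGR8, a mouse embryonic stem cell line. Transfection lasted 48 hours, with siErbB4 (a small interfering RNA that targets Erbb4, 2 samples) or siScr (a scrambled RNA, 2 samples). Both groups were kept in low-glucose medium with 2% serum, for 6 or 24 hours with no statement of which sample had which, and received the same transfection agent, and no untransfected group was analysed here. Erbb4 encodes a neuregulin receptor. Each sample was hybridised to a 1-colour Agilent array, and its title carries a replicate number, 1 or 2. Groups follow the sample titles and the transfection label. Some labels disagree with them: the scrambled RNA is named in the descriptions of the siErbB4 pair, and ErbB5 in 1 source name, that of siErbB4 replicate 2. No label states that the replicates were separate cultures, so the p-values rest on a spread between samples that may be technical.

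These factors form the regulatory core of heart muscle. NKX2-5 is a homeodomain protein, GATA4, GATA5 and GATA6 are zinc finger proteins, TBX5 and TBX20 are T-box proteins, MEF2A and MEF2C are MADS-box proteins, and HAND1 and HAND2 are basic helix-loop-helix proteins. They bind each other and the promoters of contractile and natriuretic peptide genes, and they activate several of one another's genes. Some also act outside the heart: GATA4 and GATA6 in endoderm, MEF2 proteins in skeletal muscle, HAND1 in extraembryonic tissue.

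Promoter sequences show where motifs of these families lie beside a member or a target. The windows run from 250 bases before to 50 after a transcription start, from RefSeq (GRCm38.p6). They are reported for 6 of the members (8 windows): Nkx2-5, Gata5, Tbx20, Mef2a, Mef2c and Hand2. Windows of the other members are not reported here, and the member counts below leave them out. Capitals mark matches, on either strand, to GATAA (GATA factors), AGGTGT (T-box), AAGTG (NKX2 factors) or the MEF2 consensus. Shown are Mef2a and Hand2, as examples of the members whose windows hold such matches, and the target genes Nppa and Gja5, whose levels differed between replicate numbers. Nppa encodes atrial natriuretic peptide and Gja5 the connexin of atrial and conduction tissue. In order, the windows lie at chr7:67372809-67373108 (minus strand), chr8:57320733-57321032 (plus), chr4:148000472-148000771 (plus) and chr3:97032152-97032451 (plus).
Mef2a: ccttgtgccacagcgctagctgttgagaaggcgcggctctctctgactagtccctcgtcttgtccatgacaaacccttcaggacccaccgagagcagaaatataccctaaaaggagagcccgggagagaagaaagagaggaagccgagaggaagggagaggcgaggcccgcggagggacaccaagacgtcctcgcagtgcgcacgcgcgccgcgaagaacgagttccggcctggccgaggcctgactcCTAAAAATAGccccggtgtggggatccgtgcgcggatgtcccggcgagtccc
Hand2: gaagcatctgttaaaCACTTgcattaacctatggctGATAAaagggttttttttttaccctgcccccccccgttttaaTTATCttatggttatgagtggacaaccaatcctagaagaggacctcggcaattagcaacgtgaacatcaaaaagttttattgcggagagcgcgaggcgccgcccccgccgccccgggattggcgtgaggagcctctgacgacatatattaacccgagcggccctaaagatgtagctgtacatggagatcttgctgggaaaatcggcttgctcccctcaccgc
Nppa: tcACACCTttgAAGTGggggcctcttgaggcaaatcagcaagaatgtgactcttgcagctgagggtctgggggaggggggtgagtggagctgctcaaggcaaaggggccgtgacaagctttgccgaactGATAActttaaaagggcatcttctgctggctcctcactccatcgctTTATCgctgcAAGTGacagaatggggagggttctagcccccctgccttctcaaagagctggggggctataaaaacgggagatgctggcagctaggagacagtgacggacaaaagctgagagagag
Gja5: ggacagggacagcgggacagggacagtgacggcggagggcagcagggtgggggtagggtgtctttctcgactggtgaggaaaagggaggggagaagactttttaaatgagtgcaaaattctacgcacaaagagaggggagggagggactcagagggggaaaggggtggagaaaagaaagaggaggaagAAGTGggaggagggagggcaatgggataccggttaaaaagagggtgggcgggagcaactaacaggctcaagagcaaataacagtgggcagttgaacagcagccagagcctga
The Mef2a window held 1 match to the MEF2 consensus, which 0.557% of 32851 promoter windows held. Hand2 held 2 GATAA matches and 1 AAGTG match. Of the 3 Mef2c windows, not printed, 1 held 2 GATAA, 1 AGGTGT and 1 AAGTG match, and the others held 1 AAGTG match each. The Nppa window held 2 GATAA, 1 AGGTGT and 2 AAGTG matches, and Gja5 held 1 AAGTG match. GATAA occurred in 25.4% of all windows, AGGTGT in 13.7% and AAGTG in 46.4%. The E-box CANNTG, bound by basic helix-loop-helix proteins, was not capitalised: it was in 5 of the 8 member windows and in 72.3% of all windows, and it can overlap AAGTG. The Nkx2-5 window held 1 E-box and none of the other motifs, and the Tbx20 window held none of the motifs searched. A match is a description of letters, not evidence of binding.

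Across the 4 arrays the 75th percentile of the signal was 878 to 989, and the share of probes well above background was 64.8% to 68.5%. A value below is a scaled log2 signal, the log2 processed signal minus the log2 of the array's 75th percentile, so 0 lies at that percentile. Levels of different probes are not set against each other, since probes differ in brightness. The single named Erbb4 probe was well above background on 1 of 4 arrays and cannot check the knockdown. All 12 listed cardiomyocyte markers were well above background on all arrays. Of 8 skeletal muscle markers 2 (Actn3 and Pax3) were well above background on all arrays, and 4, the regulator genes Myod1, Myf5, Myog and Pax7, on none. Of 14 endoderm markers, 10 were well above background on all arrays. So were 8 of 8 pluripotency, 10 of 12 fibroblast and matrix, and 6 of 8 smooth muscle markers. For endothelial markers it was 6 of 8, for epicardial 4 of 6 and for neural 5 of 8.

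None of the 10 factors passed the test between siErbB4 and siScr. The log2 differences (siErbB4 minus siScr) ran from -0.33 at Hand1 to 0.25 at Tbx20, with a median of -0.03 beside -0.01 over all features, and 5 were positive and 5 negative. By limma with Benjamini-Hochberg adjustment 0 of 10 members were called, where 0% of all features were called, and 0 members had an unadjusted p under 0.05, beside 1.76% of all features. The groups did not overlap at 4 members, Gata4 and Gata5 (lower) and Gata6 and Tbx20 (higher), where 29% of all features did not overlap (13% higher and 15.9% lower in siErbB4). With 2 arrays a group, the smallest two-sided p of an exact permutation test is 0.333. Every member's adjusted p in this comparison was 1.00. Of the cell type markers, 7 of 8 pluripotency markers had positive differences (median 0.49), 6 of them without overlap, where 13% of all features lay higher without overlap. Their summed signal, relative to the array's 75th percentile, was 23.7 and 25.0 in siScr and 38.1 and 28.3 in siErbB4. All 10 fibroblast and matrix markers tested had negative differences (median -0.45), 1 of them without overlap. The pluripotency median was 0.70 within number 1 and 0.05 within number 2, and the fibroblast and matrix median -0.78 and -0.13. Other lists also leaned to a side. Positive and negative differences numbered 9 and 2 for endoderm, 1 and 6 for smooth muscle, 1 and 5 for endothelial and 4 and 8 for cardiomyocyte markers. No marker was called between the groups by limma, and their part in the differences of the factors was not tested.

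**Figure D1:**
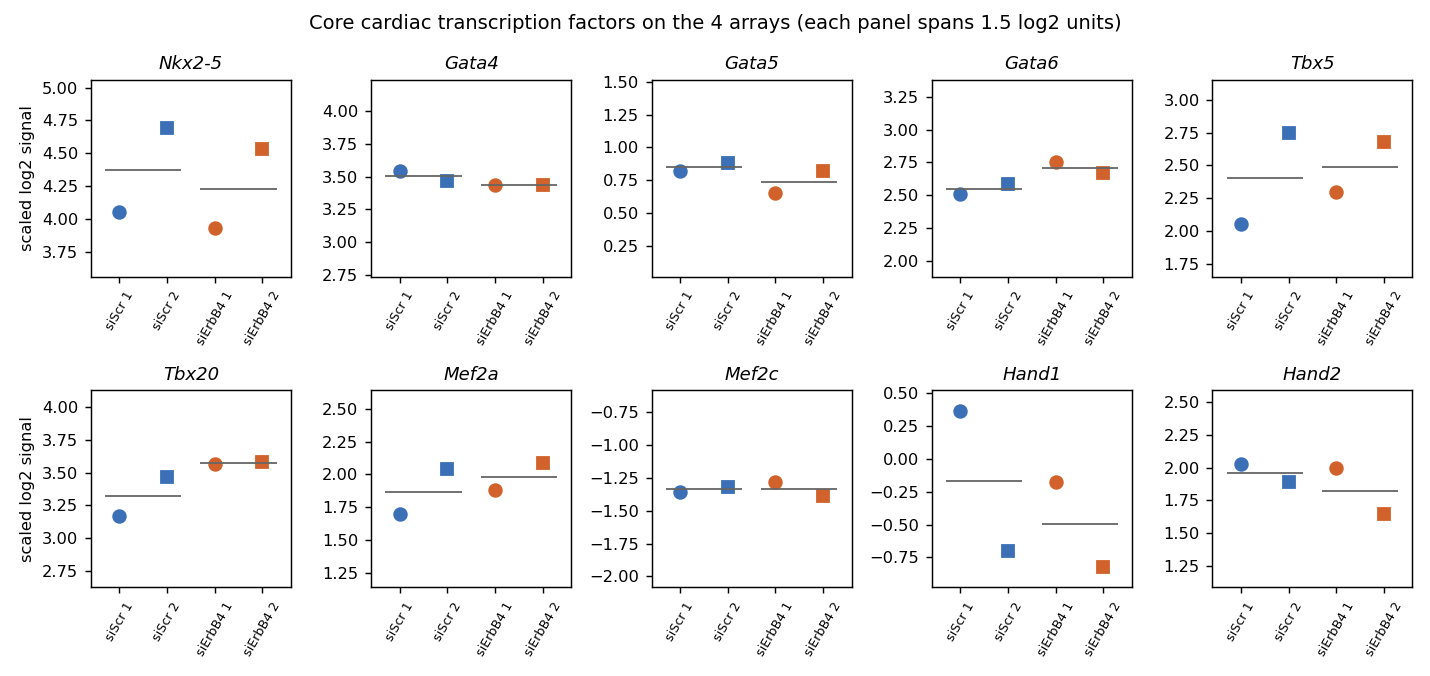
Scaled log2 signal of each core cardiac transcription factor on the 4 arrays (blue, siScr; orange, siErbB4; circles, replicate 1; squares, replicate 2; lines, group means; each panel spans the same number of log2 units, at its own level). Nkx2-5 and Tbx5 lie higher and Hand1 lower on the arrays numbered 2 in both groups. The group means (siErbB4 minus siScr) differ by -0.33 at Hand1 to 0.25 at Tbx20.

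Nkx2-5, the earliest marker of committed heart precursors and later a regulator of conduction tissue, was read at 4.05 and 4.69 in siScr 1 and 2 and at 3.93 and 4.53 in siErbB4 1 and 2. The arrays numbered 2 were the higher in each group, and the groups overlapped. Its siErbB4 difference was -0.14 (SE 0.33, 95% interval -1.06 to 0.78). Within number 1 it was -0.12 and within number 2 it was -0.16, so siErbB4 lay slightly lower in both. With 1 array left out the sign turned, to 0.18 without siScr replicate 2 and 0.16 without siErbB4 replicate 1. The difference between numbers (replicate 2 minus replicate 1) was larger, 0.62 (SE 0.12, 95% interval 0.30 to 0.94), or 1.54-fold. It was 0.64 in siScr and 0.60 in siErbB4, and its adjusted limma p of 0.0649 missed the threshold of 0.05. The call was made with normexp background correction (adjusted p 0.0237) and with probes well above background on all 4 arrays (adjusted p 0.0492).

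Both differences of the GATA genes were small, at most 0.16 in size. Gata4, which cooperates with NKX2-5 and TBX5 at cardiac promoters, was at 3.54 and 3.46 in siScr and at 3.44 and 3.43 in siErbB4. All 4 arrays lay within a narrow band, with siErbB4 just below siScr. Its siErbB4 difference was -0.07 (SE 0.13, 95% interval -0.43 to 0.29) and its difference between numbers -0.04 (SE 0.11). Gata5, a gene of early endocardial and heart precursor cells, was at 0.82 and 0.88 in siScr and at 0.65 and 0.82 in siErbB4. The groups did not overlap, by a margin narrower than the spread within siErbB4. Its siErbB4 difference was -0.12 (SE 0.14, 95% interval -0.50 to 0.27) and its difference between numbers 0.11 (SE 0.12). Gata6, which overlaps with Gata4 in function in heart and endoderm, was at 2.51 and 2.58 in siScr and at 2.75 and 2.67 in siErbB4. The siErbB4 arrays were the higher pair. The siErbB4 difference was 0.16 (SE 0.13, 95% interval -0.20 to 0.53), or 1.12-fold, and the difference between numbers -0.0046 (SE 0.13), with the sign turned without siScr replicate 2 (0.04) or without siErbB4 replicate 1 (0.12). The Gata4 difference turned in sign between numbers without siScr replicate 1 (0.01).

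The T-box genes had the largest positive siErbB4 difference among the members and the second largest positive difference between numbers. Tbx5, which acts in atria, left ventricle and the conduction system, was at 2.06 and 2.75 in siScr and at 2.29 and 2.68 in siErbB4. As with Nkx2-5, both arrays numbered 2 lay above both numbered 1, and the groups overlapped. The siErbB4 difference was 0.08 (SE 0.31, 95% interval -0.76 to 0.93), made of 0.24 within number 1 and -0.07 within number 2. It was -0.26 without siScr replicate 1 and -0.11 without siErbB4 replicate 2. Between numbers Tbx5 differed by 0.54 (SE 0.13, 95% interval 0.19 to 0.88), or 1.45-fold, with an adjusted limma p of 0.0979 (0.038 with normexp). The difference was 0.69 in siScr and 0.38 in siErbB4.

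Tbx20, a partner of NKX2-5 and GATA proteins needed for chamber growth, was read by 3 probes. The brightest, used in the test, was at 3.17 and 3.47 in siScr and at 3.56 and 3.58 in siErbB4. Both siErbB4 arrays were above both siScr arrays, with siScr 1 the lowest. The siErbB4 difference was 0.25 (SE 0.16, 95% interval -0.20 to 0.70), or 1.19-fold, larger in size than at 77.9% of all features. The other probes, designed on other RefSeq transcripts, gave 0.16 and 0.0091. In those, siScr 2 was at 0.64 and 0.79 and siErbB4 2 at 0.54 and 0.74, so the groups overlapped at both. Between numbers the brightest probe differed by 0.16 (SE 0.17), and by -0.04 without siScr replicate 1. The other probes gave 0.12 and 0.18.

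The MEF2 genes, whose proteins activate contractile genes, showed little difference. Mef2a was at 1.70 and 2.04 in siScr and at 1.88 and 2.08 in siErbB4 by its brighter probe. Arrays numbered 2 lay above those numbered 1, and the groups overlapped. Its siErbB4 difference was 0.11 (SE 0.19, 95% interval -0.41 to 0.63; -0.06 without siScr replicate 1), and 0.22 by the dimmer probe. Between numbers it was 0.27 (SE 0.12; adjusted limma p 0.269), and 0.15 by the dimmer probe. Mef2c, the MEF2 gene of the early heart tube and of the anterior heart field, was at -1.36 and -1.31 in siScr and at -1.28 and -1.39 in siErbB4. Neither the groups nor the numbers separated. Mef2c had the difference nearest 0 of the members between the groups, 0.0050 (SE 0.13, 95% interval -0.36 to 0.37), and -0.03 (SE 0.11) between numbers. Differences this near 0 have no settled sign: without 1 array the siErbB4 value reached -0.05, and between numbers 0.0097.

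The HAND genes were the members lower on the arrays numbered 2 without overlap. Hand1, a gene of the left ventricle and outer heart curvature, was at 0.37 and -0.70 in siScr and at -0.17 and -0.82 in siErbB4. It had the widest spread of the members, and siScr 1 was the highest array. The siErbB4 difference was -0.33 (SE 0.46, 95% interval -1.59 to 0.93), larger in size than at 87.1% of all features, and it turned to 0.21 without siScr replicate 1. Between numbers Hand1 differed by -0.86 (SE 0.21, 95% interval -1.41 to -0.32), or 1.82-fold lower on the arrays numbered 2, with -1.07 in siScr and -0.65 in siErbB4. Its adjusted limma p was 0.0961, and it was called with normexp (0.0273) and without siErbB4 replicate 1 (0.0359). Hand2, a gene of the right ventricle and outflow tract, was at 2.03 and 1.89 in siScr and at 1.99 and 1.64 in siErbB4, with siErbB4 2 the lowest. The siErbB4 difference was -0.14 (SE 0.18, 95% interval -0.64 to 0.36; 0.03 without siErbB4 replicate 2), and that between numbers -0.25 (SE 0.13; adjusted limma p 0.349).

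**Figure D2:**
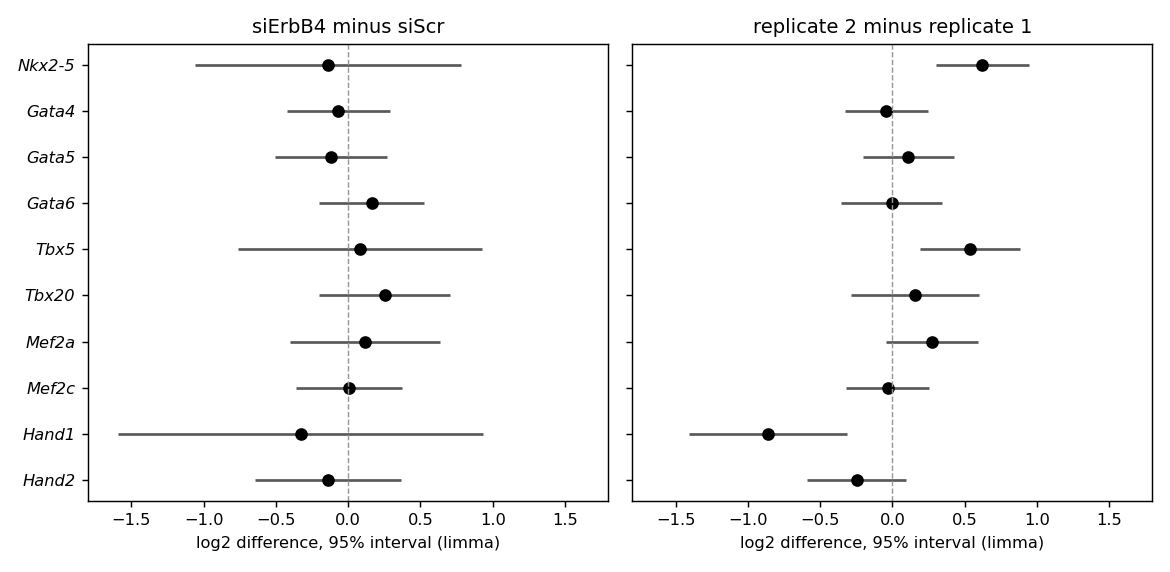
Log2 difference of each factor with its 95% interval from limma, between groups (left) and between replicate numbers (right). All intervals on the left include 0, while on the right those of Nkx2-5 (0.30 to 0.94), Tbx5 (0.19 to 0.88) and Hand1 (-1.41 to -0.32) do not, before adjustment for the number of features.

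Between replicate numbers, then, Nkx2-5 and Tbx5 had higher values and Hand1 lower values on the arrays numbered 2 in both groups, but none passed the test. By limma with Benjamini-Hochberg adjustment 0 of 10 members were called, where 5.23% of all features were (1084 of 20726, 600 higher and 484 lower). At an unadjusted p under 0.05 there were 3 members, beside 23% of all features. The numbers did not overlap at 5 members, 3 higher and 2 lower, where 55.4% of all features did not overlap (29.4% higher and 26% lower on the arrays numbered 2). Their median was 0.05 beside 0.02 over all features. Both comparisons use the same 4 arrays, and what the replicate numbers stand for is not given in the sources used here.

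**Figure D3:**
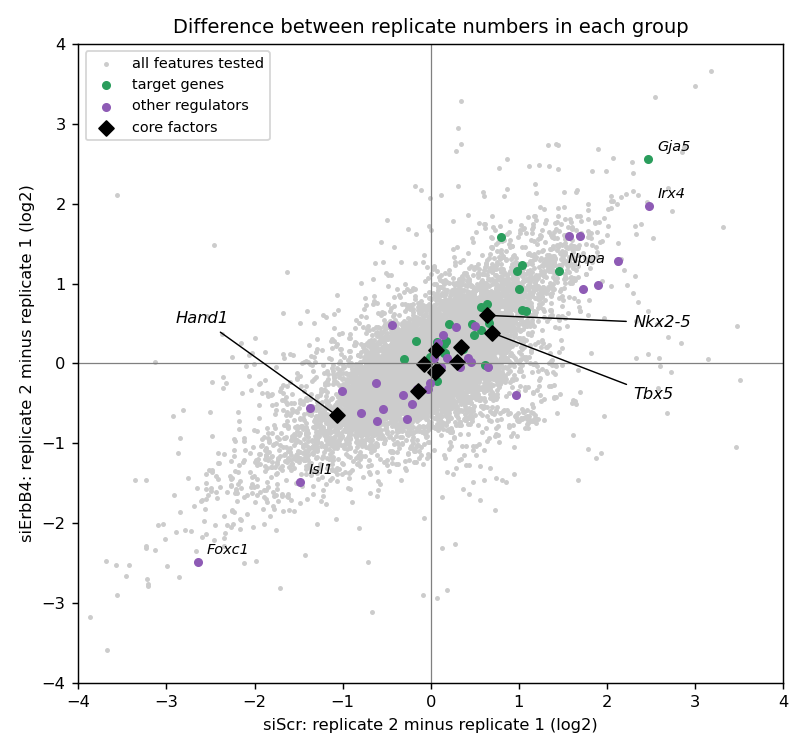
Log2 difference between the arrays numbered 2 and 1 in siScr (horizontal) against siErbB4 (vertical), for all features tested (grey; 4 features lie beyond the axes), the core factors (black), their target genes (green) and other cardiac regulators (purple). Gja5, Irx4 and Nppa lie far up in both groups and Isl1 and Foxc1 far down, with Nkx2-5, Tbx5 and Hand1 nearer the centre.

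Of the genes known to be activated by the core factors, some were called higher on the arrays numbered 2 and none between the groups. Of 30 listed targets 27 were tested, and between numbers 7 were called higher and 0 lower by limma (2.89% of all features were called higher). Their median was 0.48, 25 were positive, and at 21 both arrays numbered 2 lay above both numbered 1, as at 29.4% of all features. Gja5 was at -4.52 and -2.05 in siScr and at -4.71 and -2.15 in siErbB4, a rise of 2.51 (SE 0.13, adjusted limma p 0.0189), or 5.71-fold, and of 1.503 with normexp background correction. Myl3, the ventricular essential myosin light chain gene, was at 7.12 and 8.09 in siScr and at 6.96 and 8.11 in siErbB4, a rise of 1.06 (SE 0.12, adjusted limma p 0.0252). At both genes the arrays of 1 number lay close together and far from the other number. The other called targets, chosen for naming once their values were known, were Nppa (1.31), the calcium store genes Casq2 (1.14) and Ryr2 (0.69), the cardiac troponin I gene Tnni3 (0.97) and the potassium channel gene Kcnj3 (0.87). Not passing the test were the myosin heavy chain gene Myh6 (0.27, adjusted p 0.254) and the troponin T gene Tnnt2 (-0.08, adjusted p 0.771). The target calls fell to 0 without siScr replicate 1 or siScr replicate 2, where no feature at all was called by limma (5270 and 2682 at an unadjusted p under 0.05), and to 1 without siErbB4 replicate 2. Without the filter on dim probes they fell to 0 and with normexp they rose to 12. The median with 1 array left out was 0.44 to 0.48, with 24 or 25 positive.

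Between the groups 0 of the 27 targets were called by limma and 0 had an unadjusted p under 0.05. Lowest in p were Des at -0.44 (SE 0.17), which encodes desmin of the muscle intermediate filaments, and the cardiac troponin C gene Tnnc1 at -0.19 (SE 0.16). Their median was -0.04, with 10 positive and 17 negative. Under quantile normalization 17 were positive and the median was 0.02, and with 1 array left out 3 to 21 were positive, so no direction is given for this list.

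Among other cardiac regulators, calls between numbers were made in both directions. Of 38 listed genes 33 were tested, 6 were called higher and 2 lower by limma (2.89% and 2.34% of all features were), and the median was 0.05. Foxc1, a forkhead gene of early mesoderm, was at -2.16 and -4.80 in siScr and at -2.38 and -4.87 in siErbB4, and fell by 2.57 (SE 0.13, adjusted limma p 0.0189), or by 1.46 with normexp. Isl1, a gene of second heart field precursors and pacemaker cells, was at -1.08 and -2.57 in siScr and at -1.07 and -2.56 in siErbB4, and fell by 1.49 (SE 0.10, adjusted limma p 0.0189). Also called, and chosen for naming once their values were known, were the Iroquois genes Irx4 (2.22), Irx5 (1.70) and Irx3 (1.44), of which Irx4 marks ventricle. With them were the NKX2-5-dependent gene Hopx (1.64), the ventricular repressor gene Hey2 (1.58) and the conduction system gene Tbx3 (1.33). The paralogue Mef2d (0.05) and the myocardin gene Myocd (0.30) did not pass the test. The 8 calls fell to 5 with quantile normalization, to 2 without siErbB4 replicate 2 and to 0 without siScr replicate 1, without siScr replicate 2 or without the filter on dim probes. Between the groups 0 of 33 were called and 0 had an unadjusted p under 0.05. Nkx2-3, an NKX2 family gene, was at -0.67 (SE 0.26), but at -0.09 with normexp. Its values were low, -5.11 and -5.56 in siScr and -6.24 and -5.76 in siErbB4. Normexp also used another signal column and an offset of 50, and the cause of the smaller size was not tested.

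**Figure D4:**
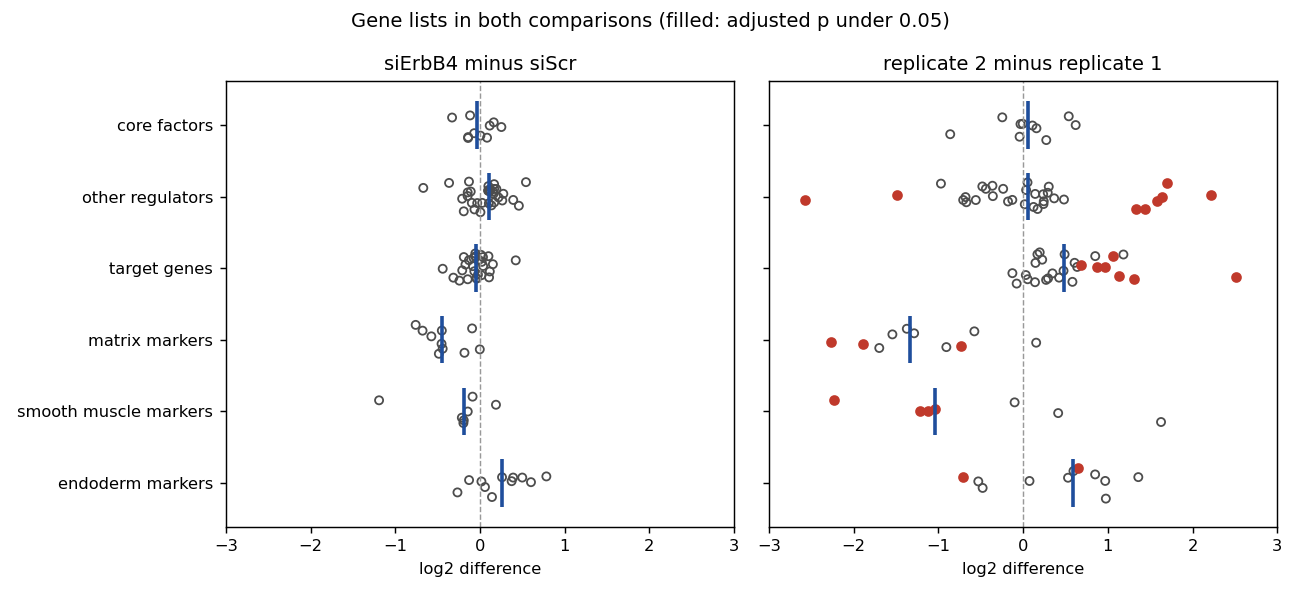
Log2 differences of the genes in each list between groups (left) and between replicate numbers (right); each circle is a gene, filled where its adjusted limma p was under 0.05, and the blue bar is the list's median. No gene of these lists is filled on the left, whereas on the right 7 target genes and 8 other regulators are, beside 0 of the 10 core factors.

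Markers of other cell types also differed between numbers. Of 12 fibroblast and matrix markers 10 were tested, and 0 were called higher and 3 lower by limma: Col1a1 (-2.27), Postn (-1.89) and Pdgfra (-0.73), where 2.34% of all features were called lower. Of the 10 tested, 9 had negative differences, and Ddr2 was at 0.15. Their summed signal, with each probe relative to the array's 75th percentile, was 40.4 and 23.4 in the siScr and siErbB4 arrays numbered 1. It was 9.68 and 7.56 in those numbered 2, and these sums are made up mostly of Col1a1 and Col1a2. Of 7 smooth muscle markers tested 4 were called lower (Acta2, Tagln, Lmod1 and Synpo2), and their sums were 542 and 430 on the arrays numbered 1 against 248 and 241 on those numbered 2, sums made up mostly of Acta2 and Tagln. The other smooth muscle markers were not called: Mylk (1.63, SE 0.83) and Smtn (0.41) lay higher on the arrays numbered 2 without overlap, and Cnn1 was at -0.10. Mylk was not well above background on all arrays and was at -8.57 on siErbB4 1. Its difference between numbers was 0.31 in siScr and 2.94 in siErbB4. Endoderm markers gave 1 called higher (Afp, 0.65) and 1 lower (Dab2, -0.70) of 11 tested. Their median was 0.59 and 8 were positive. Without overlap 7 lay higher and 3 lower on the arrays numbered 2, beside 29.4% and 26% of all features. Their sums were 7.14 and 7.73 on the arrays numbered 1 and 9.98 and 10.65 on those numbered 2. The summed signal of the cardiomyocyte markers was 1434 and 1392 on the arrays numbered 1 and 1775 and 1657 on those numbered 2. All cardiomyocyte markers but Tnni1 are also listed targets, so this sum is not independent of the target values. The part of these markers in the differences of the core factors and their targets was not tested, and in such bulk samples fewer cells of a type and less RNA per cell cannot be told apart. Without siScr replicate 1 or siScr replicate 2 these calls too fell to 0.

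Genes whose 4 values, centred on their own mean, lay nearest to those of a factor were found among the named features tested. Nearest to Nkx2-5 were Slc12a7 and Arhgef6, at root mean square distances of 0.016 and 0.019 log2 units over 4 arrays. For Tbx5 they were Ap1s3 (0.017) and Odf3 (0.021), for Gata4 Pon2 (0.0059) and Pla2g2f (0.0060), and for Mef2c Gga3 (0.0039) and Epn2 (0.0064). The distances are a description, and the genes were chosen for it.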

How the data were processed

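Per the file headers, the arrays were read with Agilent Feature Extraction 10.7.1.1. The deposited processed signal is an intensity with the background subtracted and detrended within the array, not scaled between arrays. The authors' deposited log2 value table matched each array's processed signal, on the log2 scale, after subtraction of its 75th percentile, with column medians of -3.81, -3.83, -3.83 and -3.86, so it is not centred per probe. In the main fits, the other deposited columns used are Feature Extraction's flags of 0 or 1. The normexp setting did not start from the processed signal. It used each spot's median signal and median background signal, with an offset of 50.

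Control spots (1377) and outlier-flagged spots were left out, spots of a probe were averaged on the log2 scale, and the 75th percentile of each array was subtracted. A probe was kept (25690 were) if either group had it well above background on each of its arrays, and the brightest probe of a gene was used. Names come from RefSeq accessions (assembly GRCm38.p6). The array's design names another build (mm9), so coordinates are given only for the RefSeq promoter windows. Both comparisons used limma 3.58.1 in R 4.3.3 (lmFit, eBayes, two-sided, Benjamini-Hochberg over 20726 features, threshold 0.05). In simulated data with planted changes, 0.149% of 2-fold changes were called between groups and 26.9% between numbers. For 4-fold changes the shares were 37.2% and 68.2%. The simulated arrays were drawn independently, with each feature's observed spread within groups or within numbers. In the data, same-numbered arrays deviated together, which the simulation left out. In that setting a 2-fold change between the groups was rarely called. All arrays lie on 1 slide, and their number limits the precision. The members and lists were chosen with earlier results of these data known. Named are the members, and from the regulator and target lists the 2 genes with the lowest p in each comparison. A gene that this rule names is not reported here.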

Additional observations from a re-analysis of the deposited data

Results flagged for a closer look

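Tbx5 and Mef2c differed in sign between the replicate numbers in the siErbB4 comparison. For Tbx5 the difference (siErbB4 minus siScr) was 0.24 within number 1 and -0.07 within number 2, which are -0.31 apart. For Mef2c it was 0.08 and -0.07, which are -0.15 apart. Gata6 and Mef2c differed in sign between the groups in the comparison of numbers (replicate 2 minus replicate 1). Gata6 gave 0.07 in siScr and -0.08 in siErbB4, which are -0.16 apart, and Mef2c gave 0.04 and -0.11, again -0.15 apart. Each of these values is a difference of single arrays, and none of these differences between differences was tested.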

How the results depend on the processing

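Both comparisons were repeated under 12 alternative settings each. Between the groups no setting called a feature or a member. The replicate numbers are not stated to pair the samples, though same-numbered arrays deviated together (r = 0.679 across features). With the replicate block, the number added to the fit, 0 features were called, the lowest adjusted limma p of a member was 0.641, and 1546 features had an unadjusted p under 0.05, against 365 without it. With arrays left out, uncalled members turned in sign within these ranges: Nkx2-5 -0.46 to 0.18, Tbx5 -0.26 to 0.43, Mef2a -0.057 to 0.29, Mef2c -0.048 to 0.058, Hand1 -0.86 to 0.21 and Hand2 -0.31 to 0.034. Mef2c was also -0.0044 with normexp and -0.0020 with the percentile over bright probes. The members' median ran from -0.043 to 0.10 with arrays left out, and was -0.048 with normexp. Between numbers, with arrays left out, the ranges that turned were Gata4 -0.095 to 0.013, Gata6 -0.13 to 0.12, Mef2c -0.071 to 0.0097 and Tbx20 -0.038 to 0.35.

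The number of calls between replicate numbers depended on the setting. Features called were 1875 with normexp, 0 without the filter on dim probes, and 0 to 1539 with arrays left out. Members called were 3 with normexp (Nkx2-5, Tbx5 and Hand1), 1 with probes well above background on all 4 arrays (Nkx2-5), and 0 to 1 with arrays left out (Hand1, without siErbB4 replicate 1). Target genes called were 12 with normexp, 0 without the filter and 0 to 6 with arrays left out. Other regulators called were 5 with quantile normalization, 0 without the filter and 0 to 9 with arrays left out. The members' median was -0.013 to 0.070 with arrays left out. The cause of these changes was not tested. A number or group left with 1 array is assumed to vary like the other. All member probes were well above background on all 4 arrays. The intervals depend on the fit: with the replicate block the SE of the group difference was 0.11 in place of 0.33 for Nkx2-5, 0.14 in place of 0.31 for Tbx5 and 0.15 in place of 0.46 for Hand1.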
